A study of Mus musculus with 4 samples.

Results

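The Egr and Nr4a genes belong to the immediate-early nuclear response to the T-cell receptor (TCR), and the Nab genes encode corepressors of Egr factors. The transcript levels of all of them were followed here in thymocytes with and without *Foxa1* and *Foxa2*. The members were the 8 listed genes named *Egr1*, *Egr2*, *Egr3*, *Nr4a1*, *Nr4a2*, *Nr4a3*, *Nab1* and *Nab2*, out of 24421 listed genes. They were matched by symbol and not by a cut on any measured value, though earlier results of these data were known. RNA-seq was performed on sorted CD69+CD4+CD8+ thymocytes (CD69+DP), double-positive cells that carry the activation marker CD69 after a TCR signal. The 4 samples were 2 controls and 2 Foxa1/2cKO samples (cKO1 and cKO2) from mice 6 weeks of age on a C57BL/6 background. All mice carried floxed alleles of both genes (Foxa1fl/fl Foxa2fl/fl). The Foxa1/2cKO mice were CD4Cre+ and the controls CD4Cre-, so that only the former express a Cre recombinase, from the *Cd4* regulatory elements, that deletes in DP cells and their progeny. The comparison asks whether the TCR-induced factors differ in level in CD69+DP cells when both forkhead factors are deleted. Per the methods, no mouse served more than 1 sample and every sort took a pair of mice per genotype, though whether the cells of a pair were pooled is not stated.

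In thymocytes the Egr proteins, zinc-finger transcription factors, are switched on within minutes of TCR engagement, through RasGRP1, the ERK kinases and serum response factor with its ETS-family partners. The Nr4a proteins are orphan nuclear receptors that need no known ligand, and are induced through calcineurin, NFAT and MEF2 factors that are held in check by the histone deacetylase HDAC7. The Nab proteins have no DNA-binding domain of their own: they bind Egr factors and recruit repressor complexes, and because Egr factors switch on *Nab2* they close a feedback loop. Egr factors act in positive selection, and Nr4a receptors in the death of strongly self-reactive cells.

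The promoter windows of these genes, taken from the RefSeq promoter table for build GRCm38.p6, show letters that resemble the binding sites of these pathways. The table held 6 of the 8 members, with 10 windows of 250 bases before and 50 bases after a transcription start, and *Egr1* and *Egr3* had no entry. The upstream bases of *Nr4a1*, the receptor with the highest level, and *Nr4a2*, the receptor with the lowest, are shown so that both can be compared, on the strand of the gene, 5′ to 3′. The *Nr4a1* stretch is chr15:101266596-101266845 on the plus strand and the *Nr4a2* stretch chr2:57124004-57124253 on the minus strand. Capitals mark half-sites of the cAMP response element (TGACG, or CGTCA on the other strand), Egr sites (GCGNGGGCG on either strand) and, in *Nr4a2*, a MEF2 element (TTATTTATAG).
Nr4a1: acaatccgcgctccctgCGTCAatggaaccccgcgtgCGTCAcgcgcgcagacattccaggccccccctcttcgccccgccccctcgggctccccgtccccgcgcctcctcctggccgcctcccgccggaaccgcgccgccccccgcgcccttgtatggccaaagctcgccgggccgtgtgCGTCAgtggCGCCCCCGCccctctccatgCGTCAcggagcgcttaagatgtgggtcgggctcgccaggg
Nr4a2: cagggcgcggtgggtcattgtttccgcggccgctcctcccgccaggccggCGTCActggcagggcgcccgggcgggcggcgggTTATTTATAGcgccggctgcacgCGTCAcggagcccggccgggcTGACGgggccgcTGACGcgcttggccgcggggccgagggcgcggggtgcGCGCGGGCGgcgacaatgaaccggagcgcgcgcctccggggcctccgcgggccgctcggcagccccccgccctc
Each stretch held 4 half-sites and 1 Egr site, and the MEF2 element was found in *Nr4a2* alone among the 6 members with a window. Of all 32851 windows in the table, 20.8% held a half-site, 5.55% an Egr site and 3.19% a MEF2 element. These are matches of letters and no binding was measured.

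For *Egr2*, the CArG boxes that serum response factor reads are shown, since that factor stands at the end of the pathway that induces the Egr genes. The table gave 5 windows for *Egr2*, and 30 bases around each box are printed with the box in capitals. The first box lies at chr10:67537494-67537503 and the second at chr10:67537797-67537806, both on the plus strand.
Egr2, first box: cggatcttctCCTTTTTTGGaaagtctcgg
Egr2, second box: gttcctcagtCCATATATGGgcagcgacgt
A CArG box stood in 1.63% of all windows. *Nab1* held 3 Egr sites, the only member besides both printed receptors with one, and *Nr4a3* held 4 half-sites. Half-sites also stood in windows of *Nab1* and *Egr2*, so they were not particular to the Nr4a genes. *Nab2* held no match to any of the motifs searched, and the full cAMP response element (TGACGTCA, 1.79% of windows, which contains the half-site), the Nr4a site (AAAGGTCA, 1.51%) and the Foxa site (TGTTTAC, 3.65%) were in none of the 10 windows. No match says only that those letters are not in these windows. The start used for *Nab2*, chr10:127666703, lies inside the GENCODE gene. The upstream bases of *Nab1*, *Nab2*, *Nr4a3* and some *Egr2* windows overlap GENCODE exons of the same gene.

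Values are FPKM, reads scaled by transcript length and library depth, as deposited by the authors. The reads recovered from them summed to between 10395981 and 14481466 per sample, and each member rested on 84 to 7674 reads in a sample. One library stood apart: on the first principal component, with 65.2% of the variance, cKO2 lay at 28.5 and the other 3 samples between -11.0 and -7.42. The SD over genes of the log2 difference was 0.405 between the Foxa1/2cKO samples and 0.198 between the controls, so the members' results are also given without cKO2. *Foxa1* and *Foxa2* were listed at 0 in all 4 samples and therefore did not check the genotypes. For a count of 0 the upper 95% limit is about 3 reads, which would be 0.0628 to 0.0871 FPKM of *Foxa1* and 0.0942 to 0.131 FPKM of *Foxa2*. These limits cover counting error only. All 11 listed DP markers, among them *Cd4*, *Cd8a* and *Rag1*, were above the filter in these cells.

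No member was called as different between Foxa1/2cKO and control cells. All 8 passed the filter on low values (1 FPKM in at least 2 samples, 10776 genes), and 0 of 8 were called at an adjusted p of 0.05 by limma on log2(FPKM + 1) with Benjamini-Hochberg adjustment over all genes, against 0.00928% of all genes, which is 1 gene, the long non-coding RNA 2610035D17Rik. With an unadjusted p under 0.05 there were also 0 of 8, against 4.55% of all genes. The median log2 fold change of the members was 0.03 and that of all genes 0.01. The fold change was above 0 for 6 members and below 0 for 2, and 51.3% of all genes were above 0. A mean over the 2 Foxa1/2cKO samples hid differences in level between them, however, and these are described gene by gene. In bulk RNA, fewer cells that express a gene and less RNA per cell cannot be told apart. The p-values rest on the spread between these 2 samples per group (2 residual degrees of freedom), moderated towards that of genes of like level (2.69 prior degrees of freedom). An exact permutation test of 2 against 2 cannot go below 0.333.

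The Egr factors come first, and *Egr1* (ENSMUSG00000038418, chr18:34859823-34864984, plus strand), the archetypal immediate-early factor, was the most abundant of them. Its level was 167 FPKM in control 1, 137 in control 2, 117 in cKO1 and 196 in cKO2. The Foxa1/2cKO samples thus lay on either side of both controls, which gave group means of 152 ± 21.4 FPKM (SD, n = 2) in controls and 157 ± 56.4 (SD, n = 2) in Foxa1/2cKO. The log2 fold change was 0.00 (SE 0.27, 95% interval -0.71 to 0.72, limma adjusted p = 0.997). From its reads, cKO2 was 1.68 times cKO1 (95% counting interval 1.62 to 1.75). Both distances to the controls were beyond counting error as well: the lower control was 1.17 times cKO1 (1.12 to 1.22), and cKO2 was 1.18 times the higher control (1.14 to 1.22). Only *Egr1* of the members cleared counting error on both sides.

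*Egr2* (ENSMUSG00000037868, chr10:67535475-67542188, plus strand), which overlaps *Egr1* in function, had the same order of samples. It was at 38.9 and 30.1 FPKM in the controls, at 28.5 in cKO1 and at 46.7 in cKO2. Here the low Foxa1/2cKO sample lay next to control 2: the ratio of control 2 to it was 1.055, with a counting interval of 0.968 to 1.15 that includes 1, whereas cKO2 was 1.20 times the higher control (1.12 to 1.29). Group means were 34.5 ± 6.28 and 37.6 ± 12.9 FPKM (SD, n = 2 each), and the log2 fold change was 0.09 (SE 0.27, 95% interval -0.61 to 0.79, limma adjusted p = 0.954). Between the Foxa1/2cKO samples the ratio was 1.64 (1.51 to 1.78).

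*Egr3* (ENSMUSG00000033730, chr14:70077203-70082614, plus strand), which is itself an Egr and NFAT target, did not follow the other two. Its level was 14.3 and 13.1 FPKM in the controls, 12.7 in cKO1 and 13.0 in cKO2. Both Foxa1/2cKO samples were below both controls, by little: the means were 13.7 ± 0.864 and 12.9 ± 0.204 FPKM (SD, n = 2 each), with a log2 fold change of -0.08 (SE 0.10, 95% interval -0.33 to 0.17, limma adjusted p = 0.884). cKO2 was 1.02 times cKO1, with a counting interval of 0.867 to 1.21. As a share of the summed Egr FPKM, *Egr3* was therefore lowest in cKO2, at 5.08%, against 6.49% to 8.06% in the other samples. *Egr1* was 73.9% to 76.7% and *Egr2* 16.7% to 18.2% of that sum. The remaining family member, *Egr4*, rested on 3 to 9 reads a sample and was below the filter.

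**Figure D1:**
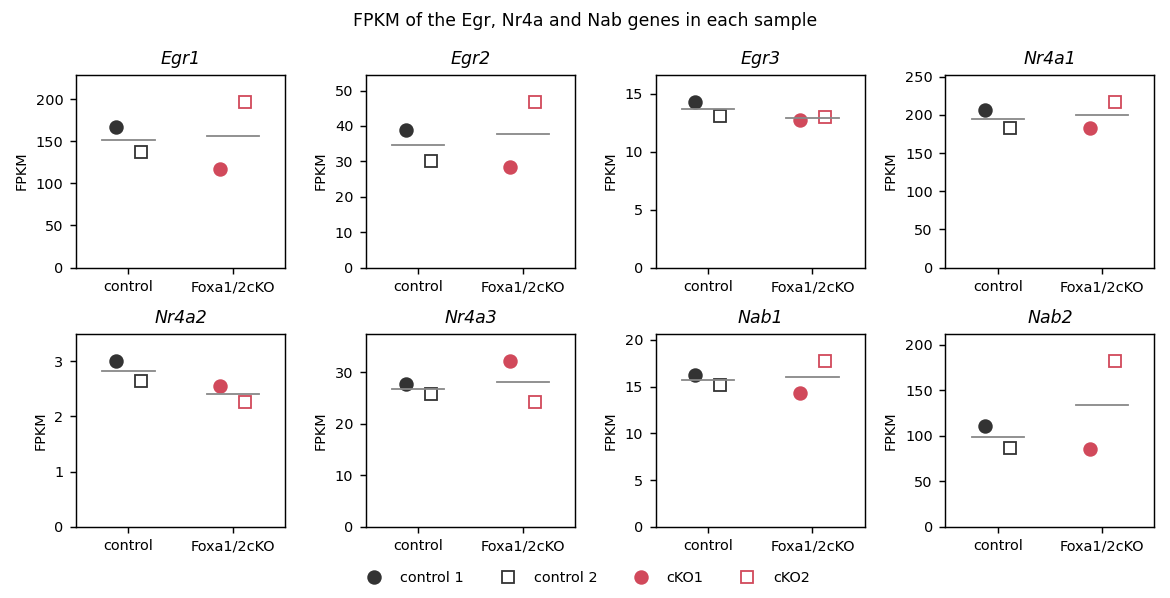
FPKM of each of the 8 genes in each sample, on axes that start at 0. Points are samples, with sample 1 of a group as a filled circle and sample 2 as an open square, and grey lines are means of 2 samples. For *Egr1*, *Egr2* and *Nab2* the Foxa1/2cKO points are the farthest apart, while *Egr3* and *Nr4a2* have both Foxa1/2cKO points below both controls.

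Among the Nr4a receptors, *Nr4a1* (Nur77, ENSMUSG00000023034, chr15:101254269-101274795, plus strand), a common reporter of TCR signal strength, had the highest level of all 8 genes. It was at 206 and 183 FPKM in the controls, and at 183 and 217 FPKM in cKO1 and cKO2. Control 2 and cKO1 were within counting error of each other, with a ratio of 1.001 (0.964 to 1.04), and cKO2 was 1.05 times control 1 (1.02 to 1.09). The log2 fold change was 0.04 (SE 0.13, 95% interval -0.29 to 0.36, limma adjusted p = 0.965), from 195 ± 16.2 FPKM in controls and 200 ± 23.8 in Foxa1/2cKO (SD, n = 2 each).

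*Nr4a3* (Nor1, ENSMUSG00000028341, chr4:48045153-48086447, plus strand), which acts together with *Nr4a1* in the deletion of thymocytes, was the one member with the reverse order. Its values were 27.7 and 25.7 FPKM in the controls, 32.1 in cKO1 and 24.3 in cKO2. cKO1 was thus the highest sample and cKO2 the lowest, with a ratio of 0.757 (0.707 to 0.809) between them. The log2 fold change was 0.06 (SE 0.15, 95% interval -0.34 to 0.47, limma adjusted p = 0.940), with means of 26.7 ± 1.40 and 28.2 ± 5.52 FPKM (SD, n = 2 each).

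*Nr4a2* (Nurr1, ENSMUSG00000026826, chr2:57106830-57124003, minus strand), better known from dopaminergic neurons, was the least abundant. It was at 2.99 and 2.64 FPKM in the controls and at 2.55 and 2.26 FPKM in cKO1 and cKO2, on 84 to 150 reads. Both Foxa1/2cKO samples were below both controls, at 2.40 ± 0.201 against 2.82 ± 0.250 FPKM (SD, n = 2 each). The log2 fold change was -0.17 (SE 0.15, 95% interval -0.55 to 0.22, limma adjusted p = 0.866), and that interval includes 0. *Nr4a1* and *Nr4a3* had opposite orders, and the make-up of the family differed between the Foxa1/2cKO samples: *Nr4a3* was 14.7% of the summed Nr4a FPKM in cKO1 and 9.98% in cKO2, with 11.7% and 12.1% in the controls.

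The Nab corepressors gave the widest and one of the narrower spreads. *Nab2* (ENSMUSG00000025402, chr10:127660918-127668568, minus strand), the Egr-induced corepressor, was at 110 and 86.8 FPKM in the controls, at 86.1 in cKO1 and at 182 in cKO2. cKO1 equalled control 2 within counting error (ratio of control 2 to it 1.009, 0.956 to 1.06), and cKO2 was 1.65 times control 1 (1.58 to 1.72) and 2.11 times cKO1 (2.01 to 2.22). Only 0.343% of all genes tested had a larger rise from cKO1 to cKO2, against 1.25% for *Egr1* and 1.55% for *Egr2*. The group means were 98.6 ± 16.7 and 134 ± 67.8 FPKM (SD, n = 2 each), and the log2 fold change was 0.35 (SE 0.38, 95% interval -0.63 to 1.34, limma adjusted p = 0.872). *Nab2* was also high relative to the factors it binds: its FPKM divided by the summed Egr FPKM was 0.501 and 0.483 in the controls, 0.545 in cKO1 and 0.710 in cKO2.

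By contrast *Nab1* (ENSMUSG00000002881, chr1:52457294-52500679, minus strand), the paralogue of *Nab2*, was at 16.2 and 15.1 FPKM in the controls, at 14.3 in cKO1 and at 17.7 in cKO2. Its samples lay in the same order as those of *Nab2* over a narrower range, with a ratio of 1.24 (1.08 to 1.41) between the Foxa1/2cKO samples. Neither distance to the controls cleared counting error: control 2 was 1.058 times cKO1 (0.928 to 1.21), and cKO2 was 1.09 times control 1 (0.970 to 1.23). The log2 fold change was 0.02 (SE 0.13, 95% interval -0.32 to 0.36, limma adjusted p = 0.981), from 15.7 ± 0.750 and 16.0 ± 2.38 FPKM (SD, n = 2 each). *Nab1* made up 8.86% of the summed Nab FPKM in cKO2 and 12.8% to 14.9% in the other samples.

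One limit bears on *Nab2* alone. In GENCODE the antisense transcript Gm16229 shares 1050 bases, or 35.7%, of the exonic length of *Nab2*, and *Nemp1* and *Stat6*, on the other strand, share 151 and 40 bases. The methods state that exons were counted without strand and give no strand setting for the gene counts, and without strand reads from *Nab2* and its antisense partner cannot be told apart. *Stat6* itself was at 71.3 and 64.4 FPKM in the controls and at 64.9 and 88.8 in cKO1 and cKO2.

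The order of levels was *Nr4a1*, *Egr1*, *Nab2*, *Egr2*, *Nr4a3*, *Nab1*, *Egr3* and *Nr4a2*, from rank 226 to rank 9434 of all listed genes by mean FPKM. The ranges over the 4 samples overlapped for *Nr4a1* and *Egr1*, for *Egr1* and *Nab2*, and for *Egr2* and *Nr4a3*, and the other neighbours were separate. The first 2 of these pairs nevertheless kept their order in 4 of 4 samples, and *Egr2* was above *Nr4a3* in 3 of 4. The order rests on the transcript lengths behind FPKM. The smallest lengths that gave whole reads were 3072 bases for *Egr1* and 2003 for *Egr3*, against 4484 and 3940 in the longest GENCODE transcript. A multiple of such a length, with reads to match, gives the same FPKM, so the true lengths can be larger.

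Read by pattern, 5 of the 8 genes (*Egr1*, *Egr2*, *Nr4a1*, *Nab1* and *Nab2*) were below both controls in cKO1 and above both in cKO2, against 18.4% of all genes tested. The reverse held for 1 of 8 (*Nr4a3*), against 13% of all genes. Both Foxa1/2cKO samples were below both controls for 2 of 8 (*Egr3* and *Nr4a2*), against 17.8% of all genes, a share close to that background, and above both for 0 of 8, against 18.9%. This pattern was noticed after the values had been seen, and it got no test. It depends in part on the scaling: with upper-quartile scaling it held for 3 members (*Egr1*, *Egr2* and *Nab1*), and with scaling to all recovered reads, an alternative chosen after seeing the data, for all 5, against 13.3% of genes under either. On the deposited scale the gap between control 2 and cKO1 was within counting error for *Egr2*, *Nr4a1*, *Nab1* and *Nab2*, and that between the higher control and cKO2 also for *Nab1*. The controls also differed among themselves, with control 1 above control 2 in 8 of 8 members, against 47.2% of all genes.

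**Figure D2:**
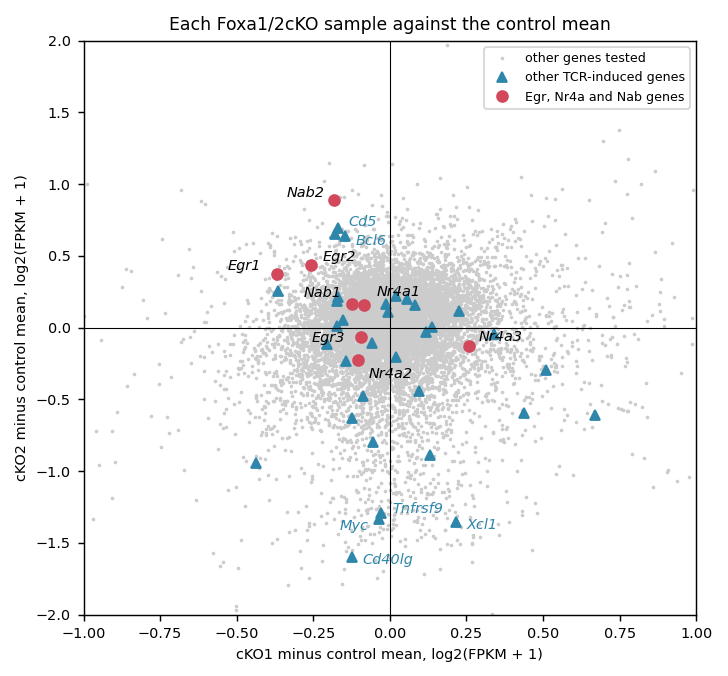
Difference of cKO1 (x axis) and of cKO2 (y axis) from the control mean, both in log2(FPKM + 1), for the 8 genes (circles), 34 other TCR-induced genes (triangles) and all other genes tested (dots, of which 74 of 10776 genes lie outside the axes). *Egr1*, *Egr2* and *Nab2* sit high on the left, *Nr4a3* sits on the right below 0, and *Cd40lg*, *Myc*, *Tnfrsf9* and *Xcl1* lie far below 0 on the y axis.

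The fold change of most members accordingly turned on which Foxa1/2cKO sample was kept. Without cKO2 the log2 fold change was below 0 in 7 of 8 members, against 52.1% of all genes. It was -0.37 for *Egr1*, -0.26 for *Egr2*, -0.18 for *Nab2* and 0.26 for *Nr4a3*. None was called by limma with Benjamini-Hochberg adjustment (adjusted p = 0.208 for *Egr1* and 0.192 for *Nr4a3*), where 0.176% of all genes were, while unadjusted p-values under 0.05 were given by 2 members, *Egr1* and *Nr4a3*, against 17.5% of all genes. Without cKO1 the log2 fold change was above 0 in 5 of 8 members, near the share of 53.4% of all genes. It was 0.38 for *Egr1*, 0.44 for *Egr2* and 0.89 for *Nab2*. *Nab2* was then called (limma adjusted p = 0.00769), as were 23.7% of all genes, and 3 members (*Egr1*, *Egr2* and *Nab2*) had an unadjusted p under 0.05, against 39.2% of all genes. In these fits the lone Foxa1/2cKO sample is assumed to vary as the controls do. *Egr3* stayed between -0.10 and -0.07, and *Nr4a2* between -0.23 and -0.10, whichever Foxa1/2cKO sample was left out.

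**Figure D3:**
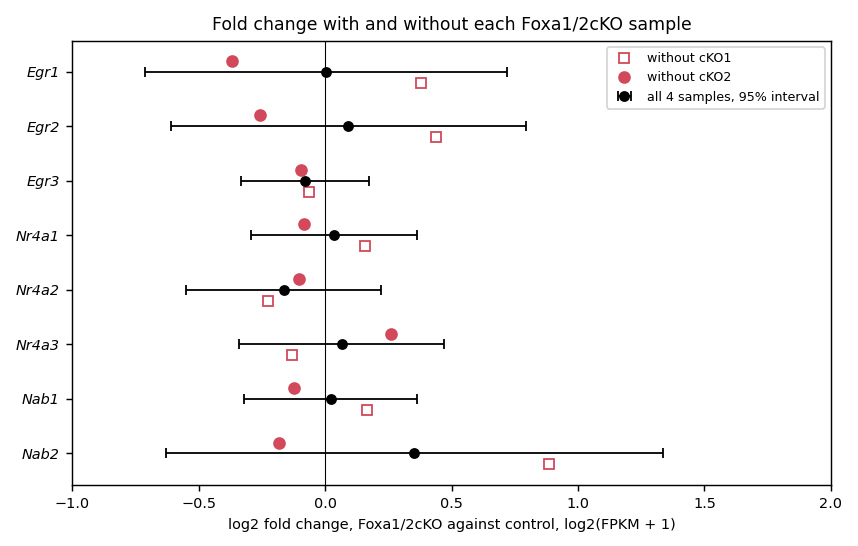
log2 fold change of Foxa1/2cKO against control on the log2(FPKM + 1) scale for each of the 8 genes, with all 4 samples (black, 95% interval from limma), without cKO1 (open squares) and without cKO2 (filled circles). All 8 intervals from the 4 samples include 0, and the red points of *Egr1*, *Egr2* and *Nab2* fall on opposite sides of 0.

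Of the genes outside the set, those whose centred log2(FPKM + 1) values over the 4 samples were nearest to each of the 3 widest-ranging members were found by Euclidean distance. For *Egr1* these were *Avpi1* (distance 0.0570) and the chemokine receptor gene *Ccr4* (0.0742), which was at 82.5 and 71.5 FPKM in the controls and 59.6 and 104 FPKM in cKO1 and cKO2. For *Egr2* they were 5830432E09Rik (0.0417) and the perforin gene *Prf1* (0.0539), and for *Nab2* they were C030034L19Rik (0.118) and *Jup* (0.119), which encodes plakoglobin. The other 5 members ranged over less than 0.5 on this scale and were not matched.

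Upstream of the Egr genes lies the Ras and ERK kinase route. Of 14 genes tested from RasGRP1 to serum response factor and its partners, 0 passed the adjusted test, 1 had an unadjusted p under 0.05 (4.55% of all genes did), and the median log2 fold change was 0.06, against 0.01 over all genes. That gene was *Elk4*, an ETS-family partner of serum response factor, at 42.7 and 33.5 FPKM in the controls and 48.4 and 55.5 in the Foxa1/2cKO samples (log2 fold change 0.45, SE 0.15, limma adjusted p = 0.863). Both Foxa1/2cKO values were above both controls. *Rasgrp1*, the exchange factor that feeds Ras in thymocytes and the most abundant gene of the list, had the order of *Egr1*: 199 and 191 FPKM in the controls, 182 in cKO1 and 273 in cKO2. That order, cKO1 below and cKO2 above both controls, was found in 3 of the 14 genes, against 18.4% of all genes.

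In the calcineurin, NFAT and MEF2 route upstream of the Nr4a genes, 0 of 13 genes passed the adjusted test, 1 had an unadjusted p under 0.05, against the same 4.55% of all genes, and the median log2 fold change was 0.07. *Nfatc3*, the NFAT factor with the highest level on this list, was at 88.1 and 92.8 FPKM in the controls and 110 and 109 FPKM in the Foxa1/2cKO samples, with no overlap (log2 fold change 0.27, SE 0.08, limma adjusted p = 0.863). *Hdac7*, which represses *Nr4a1* in resting thymocytes, was at 239 and 235 FPKM in the controls, 205 in cKO1 and 274 in cKO2, with the controls in between. It was the only 1 of the 13 genes in that order, against 18.4% of all genes.

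Downstream, 0 of 9 tested Egr target genes and 0 of 5 Nr4a-linked genes passed the adjusted test, with medians of 0.07 and 0.01. *Dgka*, an Egr2 target that ends diacylglycerol signals, was the most abundant Egr target, at 303 and 302 FPKM in the controls, 268 in cKO1 and 366 in cKO2. Of the 9 Egr targets, 2 had cKO1 below and cKO2 above both controls, against 18.4% of all genes. *Id3*, which Egr1 induces through ERK signals and which is named here after its values were seen, was at 181 and 142 FPKM in the controls, 149 in cKO1 and 255 in cKO2. Of the Nr4a-linked genes, *Foxp3*, the regulatory T-cell factor, was at 2.79 FPKM in both controls and at 1.86 and 1.26 FPKM in the Foxa1/2cKO samples (log2 fold change -0.58, SE 0.18, limma adjusted p = 0.863). *Ikzf2* (Helios), a mark of strong TCR signals, was at 26.6 and 24.2 FPKM in the controls and 30.6 and 38.2 FPKM in Foxa1/2cKO (log2 fold change 0.41, SE 0.14, limma adjusted p = 0.863). Neither gene's groups overlapped. *Bcl2l11* (Bim), the death effector of negative selection and the most abundant of these 5, was at 40.8 and 39.4 FPKM in the controls and 36.6 and 34.7 FPKM in Foxa1/2cKO.

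Among the partners through which Nab proteins repress, the chromatin-remodelling NuRD complex, 0 of 9 genes had even an unadjusted p under 0.05, the median was -0.10, and 5 of 9 had both Foxa1/2cKO samples below both controls, as did 17.8% of all genes. *Chd4*, the NuRD ATPase that Nab2 binds, was the most abundant, at 189 and 177 FPKM in the controls and 178 and 210 FPKM in cKO1 and cKO2. Among genes with like DNA-binding domains or partners, 0 of 4 tested passed the adjusted test. *Sp3*, a zinc-finger factor of GC-rich sites, was the only one with an unadjusted p under 0.05, at 44.4 and 44.5 FPKM in the controls and 51.6 FPKM in both Foxa1/2cKO samples (log2 fold change 0.21, SE 0.08, limma adjusted p = 0.863). *Wt1* was listed at 0 in all samples.

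The other genes that TCR signals induce did not take one order. Of 35 listed, 34 were tested, none had an adjusted or unadjusted p under 0.05, and the median log2 fold change was -0.05. Of these, 7 had the order of *Egr1*, against 18.4% of all genes, and 7 the reverse, against 13%. Both Foxa1/2cKO samples were below both controls for 7, against 17.8%, and above both for 2, against 18.9%. *Cd5*, a TCR-signal rheostat and the most abundant of the list, was at 484 and 423 FPKM in the controls, 402 in cKO1 and 732 in cKO2 (log2 fold change 0.26, SE 0.30, limma adjusted p = 0.881).

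The following TCR-induced genes were picked after their values were seen. *Bcl6*, a transcriptional repressor (63.0 and 53.0 FPKM in controls, 52.1 and 90.5 in cKO1 and cKO2) and *Tox*, a nuclear factor that CD4 lineage development needs (123 and 110, then 102 and 182), lay in the order of *Egr1*. *Myc* was at 53.5, 54.0 and 52.4 FPKM in the controls and cKO1 and at 20.7 in cKO2, and *Cd40lg* was at 24.9, 34.6 and 26.8 FPKM and at 9.01. cKO2 was thus the highest sample for one set of TCR-induced genes and the lowest for another. *Cd69*, the marker used in the sort, was at 113 and 103 FPKM in the controls and 107 and 121 FPKM in Foxa1/2cKO.

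**Figure D4:**
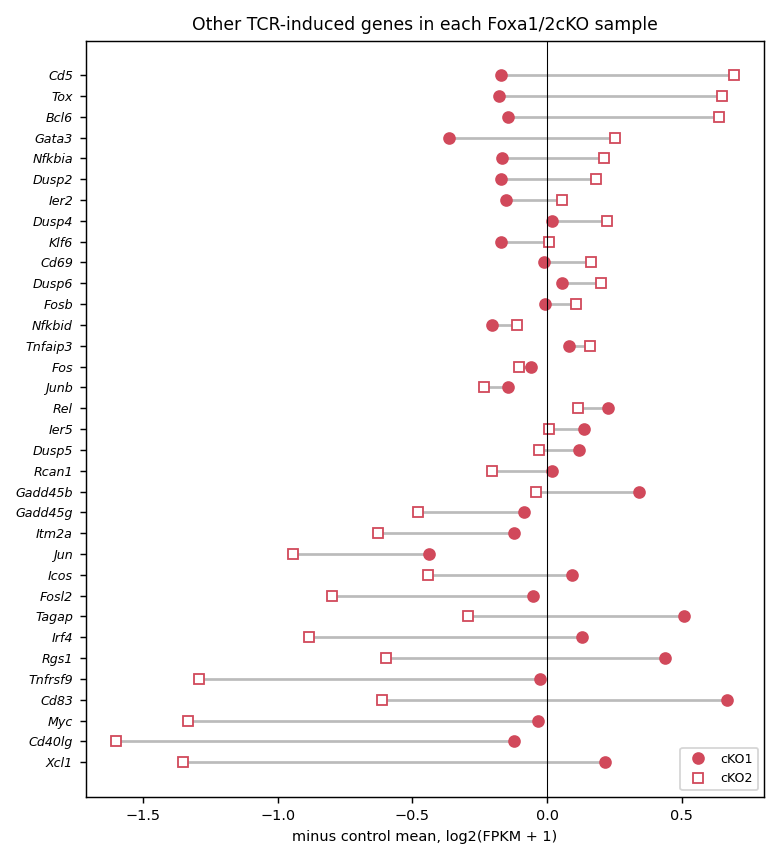
Difference of each Foxa1/2cKO sample from the control mean, in log2(FPKM + 1), for the 34 other TCR-induced genes tested, ordered by the difference between both samples. cKO1 (filled circles) lies nearer to 0 for most genes, while cKO2 (open squares) runs from 0.69 for *Cd5* to -1.60 for *Cd40lg*.

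Across all 92 genes of these pathway lists, 88 were tested, 0 passed the adjusted test and 5 had an unadjusted p under 0.05, a share near the 4.55% of all genes. Of these, 4 had the higher and 1 the lower mean in Foxa1/2cKO. The median log2 fold change over the tested genes of the lists was 0.03. The order of *Egr1* was found in 14 of the 88, against 18.4% of all genes.

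Markers of other cells varied along with cKO2, and their part in the values above was not tested. The summed FPKM of 6 mature single-positive thymocyte markers was 277 and 304 in the controls, 318 in cKO1 and 209 in cKO2, and that of 5 regulatory T-cell markers was 86.6, 96.9, 97.9 and 45.9 in the same order. The DP marker sum was 3491, 3586, 3518 and 4321 FPKM. The sample with the highest *Egr1*, *Egr2* and *Nab2* also had the highest DP and the lowest mature-cell marker sums. In that sample *Ccr7*, *S1pr1*, *Klf2* and *Il7r*, named after their values were seen, were at 39.1, 6.40, 17.0 and 13.4 FPKM.

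The other marker lists are given in the same order of samples. The 5 B-cell markers summed to 75.6 and 50.3 FPKM in the controls and 104 and 54.0 in cKO1 and cKO2, the 6 myeloid markers to 36.5, 21.9, 35.9 and 20.9, and the 5 dendritic-cell markers to 9.72, 4.55, 11.9 and 7.21. The 4 listed NKT and gamma-delta T-cell markers summed to 8.71, 10.6, 8.27 and 4.64 FPKM, the lowest in cKO2. Thymic epithelial markers stayed at or under 4.18 FPKM in sum and erythroid markers at or under 2.67, with 4 globin genes at 0 in all samples. The 20 genes of a dissociation-stress list, which shares *Fos*, *Jun* and other immediate-early genes with the TCR response, summed to 1750 and 1671 FPKM in the controls and to 1589 and 1569 FPKM in the Foxa1/2cKO samples.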

How the data were processed

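CD69+DP thymocyte RNA from 2 control and 2 Foxa1/2cKO samples was sequenced by the authors, aligned to mm10 (TopHat, Picard and DESeq2 are named in the submitters' processing notes) and counted per RefSeq gene with HTSeq in union mode, which leaves out reads that overlap several genes. The authors deposited FPKM per gene, and how the FPKM step was scaled is not given in the sources used here. Whole reads were recovered from the FPKM for 16069 of 16069 genes above 0 (100%, tolerance 0.02 reads, from a divisor set by 183 single-exon genes), and the divisors are not the sums of those reads. For each gene the smallest length that gave whole reads was kept. Where the true length is a multiple of it, the reads are understated and the counting intervals are too wide. Of the 24421 symbols, 27 had been turned into dates and were not used by name.

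Genes with at least 1 FPKM in at least 2 samples (10776) were tested with limma 3.58.1 in R 4.3.3, with a trended prior, on log2(FPKM + 1), which understates changes of low genes, and p-values were adjusted by Benjamini-Hochberg at 0.05. No count model was used on the FPKM beyond limma-voom on the recovered reads as an alternative. Counting intervals at 95% come from the recovered reads and cover counting error only. The code was tested on simulated data. Named genes were the 8 members, the genes of each pathway list with an unadjusted p under 0.05 and non-overlapping groups, the most abundant gene of each list and, for members ranging over at least 0.5, the 2 nearest genes. Members and lists were chosen with earlier results of these data known. Alternatives were a pseudocount of 0.1, other filters, other scalings, no trend, voom, a replicate block and leaving out each sample. Replicate numbers were not shown to pair samples (correlation of deviations -0.059).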

Additional observations from a re-analysis of the deposited data

How the results depend on the processing

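The number of genes called over the whole table was 1 with all samples, and it was 0 with a pseudocount of 0.1, with no filter, with at least 1 FPKM in all 4 samples, with upper-quartile scaling, with limma-voom and with scaling to all recovered reads, an alternative chosen after seeing the data. It ranged from 0 to 2559 when 1 sample was left out, with 2559 called without cKO1 and 19 without cKO2. The number of members called was 0 under every setting except that, leaving out 1 sample, it ranged from 0 to 1 (*Nab2* without cKO1). With an unadjusted p under 0.05 it ranged from 0 to 3 (3 without cKO1, 2 without cKO2). Pathway genes with an unadjusted p under 0.05 numbered 5, or 9 with no filter, 3 with the replicate block and 0 to 48 leaving out 1 sample. Of 64 member fold changes under the other 8 settings, 61 kept direction and call, with adjusted p from 0.833 to 0.999. The 3 that turned sign were *Egr1* at -0.017 (upper-quartile) and -0.031 (all recovered reads) and *Nab1* at -0.012 (all recovered reads). Of 32 leaving out 1 sample, 21 kept direction and call, 10 turned sign and 1 was called. The log2 fold changes then ran from -0.37 to 0.38 for *Egr1*, -0.26 to 0.44 for *Egr2*, -0.14 to -0.02 for *Egr3*, -0.086 to 0.16 for *Nr4a1*, -0.23 to -0.10 for *Nr4a2*, -0.13 to 0.26 for *Nr4a3*, -0.12 to 0.16 for *Nab1* and -0.18 to 0.89 for *Nab2*. The cause was not tested. The replicate numbers are shared by the groups only as numbers. The replicate block gave 1 gene called and changed no call of a member. At 84 to 150 reads, counting error limits *Nr4a2*, where the ratio of cKO2 to cKO1 was 0.889 (0.661 to 1.19).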
